A study of Mus musculus with 8 samples.

Results

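The genes described here are 10 genes known from quiescent hepatic stellate cells, namely Colec10, Colec11, Ecm1, Hgf, Lrat, Reln, Ngfr, Rgs5, Bambi and Hand2, out of 19642 genes in the deposited table of counts for WT and N-LKO livers. They were selected by symbol, and some of them were chosen because their level falls in N-LKO livers, so the difference between genotypes in these 10 genes is given as a description and not as a test. All 10 passed the filter on low counts, which kept 14214 genes. The question was whether the genes that fell did so alone or together with the other genes of the same cell.

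Liver RNA was sequenced from 4 WT and 4 N-LKO male mice on the C57BL/6 background, fed chow diet (CD), with 1 library per mouse. N-LKO mice carry loxP-flanked alleles of NgBR, the protein encoded by Nus1, and the Cre that deletes them is driven by the albumin promoter, which is active in hepatocytes and not in mature stellate cells. Whether the WT mice carried Cre or floxed alleles is not given in the sources used here. The sample titles and the study's supplement give 8 weeks of CD, whereas the treatment entries give 16 weeks. Totals were 14688380 to 18585376 counts per liver. Values are CPM, that is counts scaled to library size, after TMM scaling, and log2 fold changes are N-LKO minus WT from edgeR. A gene is named as called where the adjusted p of edgeR's quasi-likelihood test over all 14214 genes is under 0.05. Nus1 itself, which checks the labels, was at 88.2 ± 4.14 CPM in WT (SD, n = 4) and 36.7 ± 2.57 CPM in N-LKO livers (SD, n = 4), with a log2 fold change of -1.26 (SE 0.0748, edgeR adjusted p = 3.1e-05).

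Hepatic stellate cells lie between hepatocytes and the sinusoidal endothelium. In the healthy liver they are quiescent, store vitamin A as retinyl esters, and secrete growth factors and matrix regulators that act on hepatocytes. After injury they lose these stores and become collagen-producing myofibroblasts, with a change in gene expression known as activation. In whole liver RNA, fewer cells of a type and less RNA per cell cannot be told apart, and a transcript is not assigned to its cell of origin. ECM1, for example, has been described in hepatocytes as well as in stellate cells.

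Promoter sequence was available for Ecm1, which fell, and for Reln, which differed by less than its spread and whose level followed that of Ecm1 from liver to liver within each genotype. These 2 are printed because the contrast between them runs through the results. They are the 250 bases before the RefSeq start (GRCm38.p6), read 5′ to 3′ on the minus strand, with matches to 4 short motifs in capitals. The E-box, spelled CANNTG, is bound by basic helix-loop-helix factors, the class to which HAND2 belongs. The GATA box was searched as AGATAA. The LIM homeodomain box was searched as TAATTA. The core promoter element that places the start was searched as TATAAA. Ecm1 is chr3:95739570-95739819 and Reln is chr5:22344706-22344955.
Ecm1: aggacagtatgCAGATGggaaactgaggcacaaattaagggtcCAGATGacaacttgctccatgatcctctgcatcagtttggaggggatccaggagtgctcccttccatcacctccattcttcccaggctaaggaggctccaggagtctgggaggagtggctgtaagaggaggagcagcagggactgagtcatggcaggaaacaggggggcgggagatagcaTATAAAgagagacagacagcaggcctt
Reln: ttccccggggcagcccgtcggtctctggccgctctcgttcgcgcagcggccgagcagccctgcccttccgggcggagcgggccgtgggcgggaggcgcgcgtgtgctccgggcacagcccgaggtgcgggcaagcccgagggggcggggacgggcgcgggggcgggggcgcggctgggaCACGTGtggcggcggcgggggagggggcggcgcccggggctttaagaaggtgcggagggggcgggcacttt

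Ecm1 held 2 E-boxes and the core promoter element at -27 relative to the start, whereas Reln held 1 E-box at -71 and no such element. The GC content of the 300-base window from 250 before to 50 after the start was 54.7% for Ecm1 and 80.7% for Reln. Promoters on chromosome 18, where Bambi lies, were left out of the search and of the shares given below, and Colec10 had no entry. Both strands of such windows were searched in the other 8 members. An E-box was found in all 8, beside 72.3% of 32851 mouse promoters, so its presence is common. The core promoter element was found in 1 of the 8, Ecm1, beside 13.6% of promoters. A GATA box was found in 3 of the 8 (Colec11, Hand2 and Rgs5), beside 11.2% of promoters, and a LIM homeodomain box in 1 (Hand2, where it overlaps the GATA box), beside 5.29%. A match to these letters is a description of the sequence and not a site of binding.

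Colec10 fell most. It lies on chromosome 15 (GRCm38, plus strand, 54410774 to 54466358) and encodes a collectin, a secreted protein that recognises sugars on microbes and damaged cells and starts the lectin pathway of complement. Its level in WT livers 1 to 4 was 31.6, 24.1, 31.4 and 30.6 CPM, and in N-LKO livers 1 to 4 it was 11.5, 14.6, 11.3 and 10.1 CPM. The lowest WT liver was well above the highest N-LKO liver, and WT 2 was below the other WT livers. The mean was 29.4 ± 3.58 CPM in WT (SD, n = 4) and 11.9 ± 1.91 CPM in N-LKO (SD, n = 4), so that 40.3% of the WT level remained. The log2 fold change was -1.31 (SE 0.129). Colec10 was called lower in all 8 fits that left out a liver, with log2 fold changes from -1.42 to -1.24. These fits reuse the livers by which genes were chosen, so they describe the fall and do not test it.

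Ecm1 was the other gene that fell. It lies on chromosome 3 (minus strand, 95734147 to 95739569) and encodes extracellular matrix protein 1, a secreted glycoprotein known to keep latent TGF-beta in the matrix inactive. Its level was 55.6, 52.2, 73.5 and 75.5 CPM in WT livers 1 to 4 and 33.5, 41.6, 37.5 and 32.3 CPM in N-LKO livers 1 to 4. Every N-LKO liver was below every WT liver, and the WT livers formed a lower and a higher pair. The mean fell from 64.2 ± 12 CPM (SD, n = 4) to 36.2 ± 4.23 CPM (SD, n = 4), which is 56.4% of WT, with a log2 fold change of -0.83 (SE 0.134). Ecm1 lost its call without WT 4, at a log2 fold change of -0.74, and without N-LKO 3, at -0.84.

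Of the 10 genes, 2 were called lower, beside 0.218% of all genes tested (31 of 14214), and none was called higher, beside 0.823% (117 of 14214). DESeq2 and limma-voom called the same 2 genes. The same 2 genes had every N-LKO liver below every WT liver, beside 3.32% of all genes. Nothing is read from these counts, since the falls were part of how the genes were chosen. Among the 31 genes called lower, Colec10 was number 12 by size of fall and Ecm1 number 21. Ecm1 was number 4 of the 31 by mean CPM.

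The close relative Colec11 did not follow Colec10 to the same degree. Colec11 (chromosome 12, 28594173 to 28623377, minus strand) encodes the collectin that joins with the Colec10 product into a mixed complex in blood. WT livers 1 to 4 were at 12.8, 11.6, 16.8 and 13.7 CPM, and N-LKO livers 1 to 4 were at 9.75, 12.3, 12.4 and 11.5 CPM. N-LKO 1 and 4 were below every WT liver, and N-LKO 2 and 3 lay within the WT range. The log2 fold change was -0.26 (SE 0.13), with a 95% interval of -0.54 to 0.029. The ratio of Colec10 to Colec11 CPM was 2.16 ± 0.25 in WT (SD, n = 4) and 1.04 ± 0.164 in N-LKO livers (SD, n = 4), without overlap. Per kilobase of exon Colec10 was below Colec11 in both groups, at 6.41 against 8.47 CPM per kb in WT and 2.59 against 7.09 CPM per kb in N-LKO livers.

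Among the secreted ligands, Hgf and Reln differed by less than the spread of the livers. Hgf (chromosome 5, 16553495 to 16620152, plus strand) encodes hepatocyte growth factor, the ligand of MET and a mitogen for hepatocytes. It was at 9.94, 7.75, 10.9 and 12.2 CPM in WT livers 1 to 4 and 8.45, 15.4, 12.4 and 10.1 CPM in N-LKO livers 1 to 4. The groups overlapped, with N-LKO 2 the highest of the 8, and the log2 fold change was 0.18 (SE 0.19). Reln (chromosome 5, 21884454 to 22344702, minus strand) encodes reelin, a large secreted glycoprotein that binds lipoprotein receptors. It was at 40.2, 31.8, 54.4 and 58.1 CPM in WT livers 1 to 4 and 41.6, 57.8, 51.8 and 44.9 CPM in N-LKO livers 1 to 4. The N-LKO values fell inside the WT range, the log2 fold change was 0.087 (SE 0.178), and its sign turned to -0.055 without WT 2.

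Lrat encodes lecithin retinol acyltransferase, the enzyme that esterifies retinol for storage, and is widely used to mark stellate cells. It lies on chromosome 3 (minus strand, 82892579 to 82903973). WT livers 1 to 4 were at 16.6, 13.1, 17.9 and 15.5 CPM, and N-LKO livers 1 to 4 were at 10, 20.5, 15.1 and 11.1 CPM. The N-LKO livers spanned the whole WT range and beyond it on both sides, and the log2 fold change was -0.15 (SE 0.202), with a 95% interval of -0.60 to 0.29. A fall as large as that of Colec10 or Ecm1 lies outside this interval.

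The receptor and signalling genes differed in direction. Ngfr (chromosome 11, 95568818 to 95587735, minus strand) encodes a neurotrophin receptor of the TNF receptor family. It was the least counted of the 10, with 14 to 47 counts per liver, and its CPM was 2.51, 1.13, 1.78 and 1.66 in WT livers 1 to 4 and 0.794, 1.58, 1.86 and 1.43 in N-LKO livers 1 to 4. The groups overlapped, and the 95% interval of its log2 fold change of -0.34 (SE 0.315) ran from -1.03 to 0.36, so at this depth a fall of the size seen in Ecm1 could not be told from none. Rgs5 (chromosome 1, 169655501 to 169695813, plus strand) encodes a regulator that shortens G protein signals in pericyte-like cells. It was at 34.4, 28.6, 52.7 and 39.2 CPM in WT livers 1 to 4 and 34.6, 44.2, 36.8 and 30.8 CPM in N-LKO livers 1 to 4. WT livers held both the lowest and the highest value, and the log2 fold change of -0.082 (SE 0.173) changed sign to 0.10 without WT 3.

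Bambi moved the other way. It lies on chromosome 18 and encodes a decoy receptor that dampens TGF-beta signalling. WT livers 1 to 4 were at 1.98, 1.56, 2.22 and 1.93 CPM and N-LKO livers 1 to 4 at 2.89, 2.64, 3.52 and 3.6 CPM. Every N-LKO liver was above every WT liver, which held for 4.2% of all genes tested, and the N-LKO livers averaged 164% of the WT level. The log2 fold change was 0.71 (SE 0.187), with a 95% interval of 0.30 to 1.13, and Bambi was not called in any of the fits.

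Hand2, a transcription factor gene of mesenchymal lineages, lies on chromosome 8 (plus strand, 57320983 to 57324633). It was at 6.47, 6.0, 5.71 and 7.39 CPM in WT livers 1 to 4 and 5.61, 7.39, 7.96 and 8.35 CPM in N-LKO livers 1 to 4. The groups overlapped through N-LKO 1, the lowest of the 8, and the log2 fold change was 0.19 (SE 0.148). The annotation places the antisense gene Hand2os1 over 19.6% of the exon bases of Hand2. Since the use of strand in counting is not given in the sources used here, reads of the 2 cannot be told apart. The other 9 genes shared at most 6.74% of their exon bases with another gene (Hgf).

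**Figure D1:**
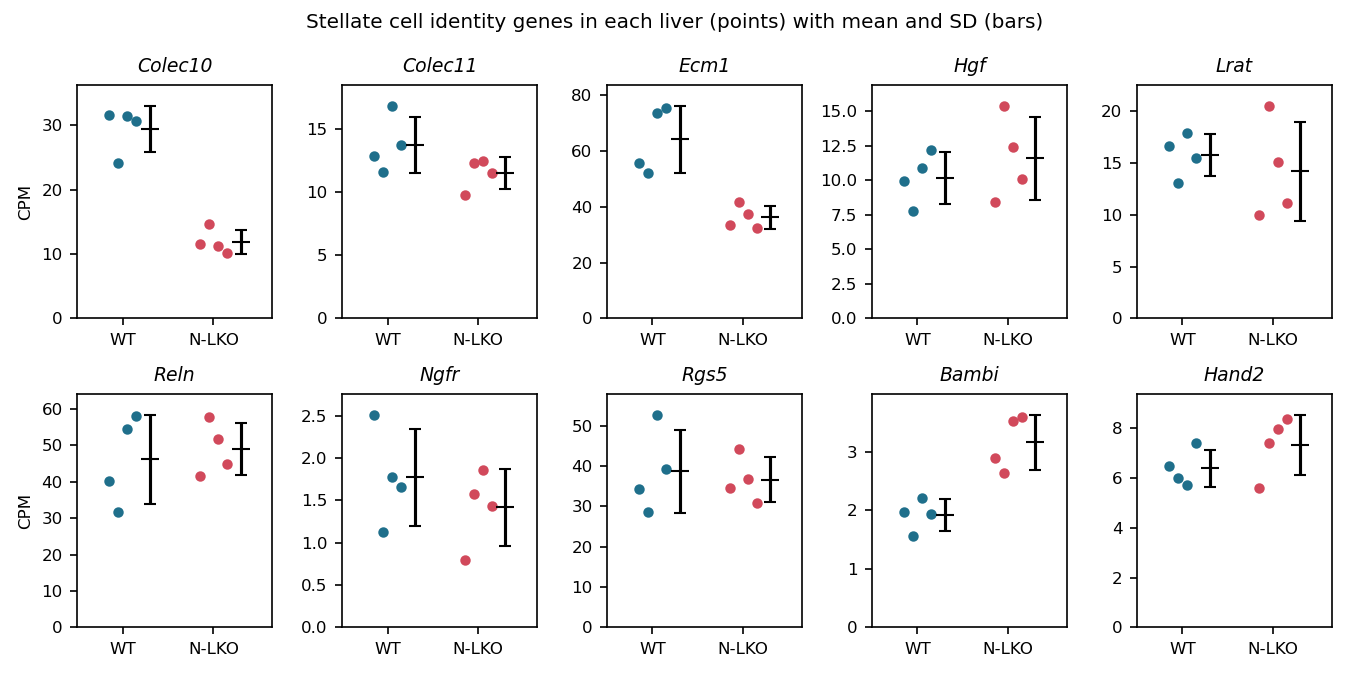
CPM (vertical axis, from 0, a scale of its own in each panel) of each of the 10 genes in WT (blue) and N-LKO (red) livers, with 1 point per liver and the mean and SD of 4 livers as a black bar. The red points lie wholly below the blue ones for Colec10 and Ecm1 and wholly above them for Bambi, and the points of the other 7 genes overlap.

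Over the 10 genes, 6 had a log2 fold change below 0 and 4 above, and the median was -0.12 beside -0.0033 for all genes tested. Per kilobase of exon, the order of levels changed around Colec10. In WT livers Ecm1 was highest at 25.5 ± 4.76 CPM per kb (SD, n = 4), followed by Rgs5 at 8.52, Colec11 at 8.47, Colec10 at 6.41, Lrat at 2.94, Hand2 at 2.72, Reln at 1.94, Hgf at 1.42, Ngfr at 0.513 and Bambi at 0.379 CPM per kb. Neighbours in that order whose ranges over the livers overlapped were Rgs5 with Colec11, Lrat with Hand2, Hand2 with Reln, Reln with Hgf and Ngfr with Bambi. In N-LKO livers Ecm1 was still highest at 14.4 ± 1.68 CPM per kb (SD, n = 4), whereas Colec10, at 2.59 CPM per kb, came after Hand2 and Lrat. The range of Colec10 there overlapped those of Hand2, Lrat and Reln, so its place among them is not settled.

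The falls were then set against the other genes of quiescent stellate cells. A list of 33 such genes that excludes the 10 was used, of which 32 were tested. Their mean log2 CPM was 2.95 ± 0.19 in WT (SD, n = 4) and 3.05 ± 0.21 in N-LKO livers (SD, n = 4). The N-LKO mean was 0.10 above the WT mean, within the spread of the livers. Relative to this mean, the log2 CPM of Colec10 was 2.09, 1.89, 1.9 and 1.81 in WT livers 1 to 4 and 0.685, 0.585, 0.363 and 0.439 in N-LKO livers 1 to 4, a difference of -1.41. Relative to the same mean, Ecm1 was at 2.91, 3.01, 3.12 and 3.11 in WT livers and at 2.22, 2.09, 2.09 and 2.1 in N-LKO livers, a difference of -0.91. Neither gene's groups overlapped on this scale, which is a description, since genes were chosen by falls in these same livers. The share of all genes without overlap on this scale was not computed. Colec11 also separated, with a difference of -0.35, and the other 7 genes overlapped, with differences from -0.40 (Ngfr) to 0.58 (Bambi). The reference holds 5 called genes, of which 4 rose. With these left out, a choice made after seeing the data, the difference was -1.28 for Colec10, -0.789 for Ecm1 and -0.22 for Colec11, whose groups then overlapped, while those of Bambi, at 0.71, did not.

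Ratios of CPM between single genes in the same liver are given as a description, since those with Colec10 or Ecm1 carry the falls by which genes were chosen. The ratio of Colec10 to Lrat was 1.87 ± 0.0959 in WT (SD, n = 4) and 0.877 ± 0.196 in N-LKO livers (SD, n = 4). The ratio of Ecm1 to Reln was 1.38, 1.64, 1.35 and 1.3 in WT livers 1 to 4 and 0.804, 0.719, 0.724 and 0.719 in N-LKO livers 1 to 4. In N-LKO livers 2 to 4 it was nearly the same number although the level of each gene differed between them. The ratio of Colec10 to Rgs5 was 0.784 ± 0.138 in WT (SD, n = 4) and 0.324 ± 0.0117 in N-LKO livers (SD, n = 4). The ratio of Ecm1 to Lrat only just separated, at 3.36 to 4.89 in WT and 2.03 to 3.33 in N-LKO livers. Of the 16 ratios of Colec10 or Ecm1 to the other 8 genes, 14 had no overlap between genotypes, and those to Ngfr overlapped. Among those 8 genes, 5 of 28 ratios had no overlap, 4 of them with Bambi.

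**Figure D2:**
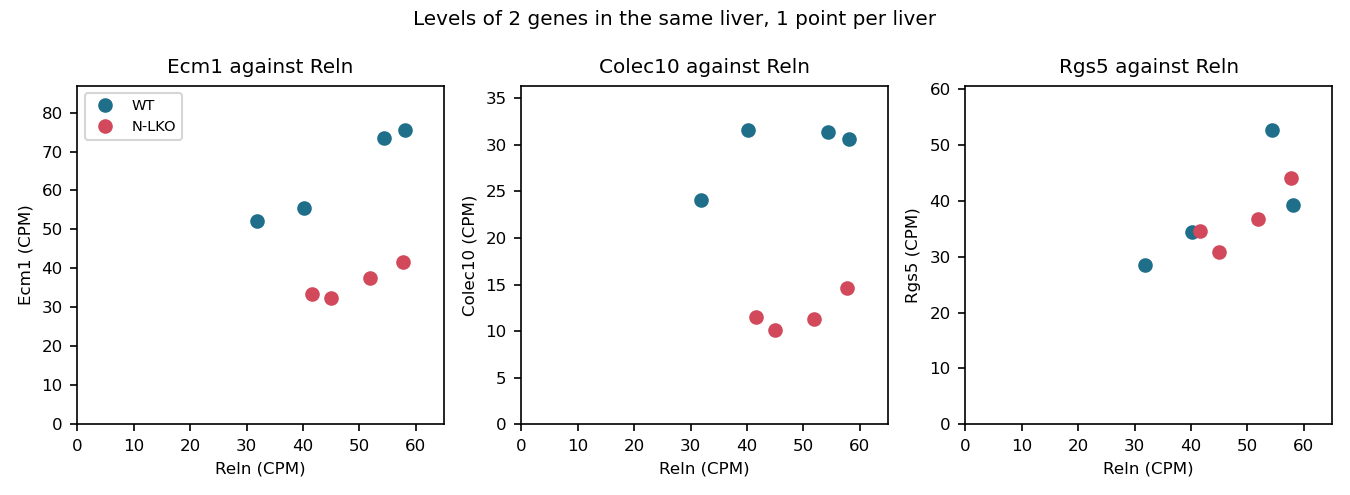
CPM of Ecm1, Colec10 and Rgs5 (vertical axes, from 0) against CPM of Reln (horizontal axis, from 0) in the same liver, with 1 point per liver, WT in blue and N-LKO in red. For Ecm1 and Colec10 all N-LKO points lie below all WT points, while their Reln levels overlap, and for Rgs5 the points of both genotypes overlap.

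Levels were also compared from liver to liver within each genotype. After each genotype's mean was taken from the log2 CPM values, Pearson's r over the 8 livers had a median of 0.624 over the 45 pairs and ranged from -0.117 to 0.966. It ranged from 0.297 to 0.966 over the 28 pairs that leave out Bambi and Hand2. The highest was Ecm1 with Reln, at r = 0.966 and Spearman's rho = 0.929 over 8 livers, and at r = 0.959 without the 2 livers farthest from the median of Reln. Without centring, r between them was 0.225. The points share libraries and their depth, so these correlations are a description. Among 13166 genes averaging 1 CPM or more, the 5 whose centred pattern was most like that of Ecm1 were Tlcd4 (r = 0.984), Aldh3a2 (0.976), Tmem64 (0.968), Reln (0.966) and Acot1 (0.963). Those most like Colec10 were Eaf1 (r = 0.992), Gpat3 (0.989), Slc22a5 (0.983), Fgfr2 (0.982) and Tgfbr1 (0.975). Both sets of 5 are the highest of 13166 values over 8 livers. How high r gets by chance in a search of this size was not computed, so no link is read from them.

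The other quiescent stellate genes were called in both directions. Of the 32 tested, 1 was called lower and 4 higher (2 and 6 by DESeq2), beside 0.218% and 0.823% of all genes in edgeR. Unadjusted p was under 0.05 in edgeR for 17 of the 32. Log2 fold changes ran from -1.68 to 1.47, and the median was 0.096 beside -0.0033 for all genes. Every N-LKO liver was below every WT liver for 4 of the 32, beside 3.32% of all genes, and above for 8, beside 4.2%. The lowest log2 fold change of the list was that of Hhip, an antagonist of hedgehog ligands, named here after its values were seen. Hhip was at 3.91 ± 1.31 CPM in WT and 1.22 ± 0.71 CPM in N-LKO livers (SD, n = 4 each), which is 31.1% of WT. The highest N-LKO liver, at 2.18 CPM, was only just below the lowest WT liver, at 2.19 CPM, and counts were 7 to 96 per liver. The log2 fold change of Hhip was -1.68 (SE 0.385, edgeR adjusted p = 0.0764), and Hhip was called by DESeq2. Ntm, which encodes a neural cell adhesion protein, fell from 3.76 ± 0.978 to 1.37 ± 0.152 CPM (SD, n = 4 each), a log2 fold change of -1.45 (SE 0.232, edgeR adjusted p = 0.0154). Adamtsl2, which encodes a secreted microfibril-associated protein, rose from 3.44 ± 0.527 to 9.57 ± 1.56 CPM (SD, n = 4 each), a log2 fold change of 1.47 (SE 0.159, edgeR adjusted p = 0.00162). Pdgfra, which encodes a receptor for platelet-derived growth factor, rose from 8.56 ± 1.17 to 22.6 ± 4.86 CPM (SD, n = 4 each), with a log2 fold change of 1.40 (SE 0.16, edgeR adjusted p = 0.00214). Pdgfrb and Cygb, also named after their values were seen, were called higher by DESeq2 and not by edgeR. Pdgfrb rose from 4.24 ± 1.04 to 8.71 ± 2.51 CPM (SD, n = 4 each), by 1.04 on the log2 scale (SE 0.23, edgeR adjusted p = 0.0688). Cygb rose from 4.55 ± 1.07 to 8.67 ± 2.6 CPM (SD, n = 4 each), by 0.92 (SE 0.239, edgeR adjusted p = 0.118). For both, every N-LKO liver was above every WT liver. Olfml3, a secreted olfactomedin family gene, rose by 1.39 on the log2 scale (SE 0.276, edgeR adjusted p = 0.0429), and it was called without WT 4 and without N-LKO 4 but in none of the other 6 fits with a liver left out. Ntm lost its call without WT 4 and without N-LKO 3, as Ecm1 did.

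Among the 27 that were not called, the most abundant were Tlcd4, Cxcl12, Steap4, Prelp, Abcc9 and Vipr1. Tlcd4 was at 697 ± 116 CPM in WT and 738 ± 92.9 CPM in N-LKO livers (SD, n = 4 each). That is far above the stellate marker Lrat, at 15.8 and 14.2 CPM. Which cells the Tlcd4 transcript came from was not tested, so its level need not follow that of stellate cells. Cxcl12, a chemokine that endothelial cells also make, was at 288 ± 41.1 CPM in WT and 326 ± 35.1 CPM in N-LKO livers (SD, n = 4 each). Prelp, a matrix proteoglycan, was at 34.1 ± 6.88 CPM in WT and 37.1 ± 7.45 CPM in N-LKO livers (SD, n = 4 each). Both overlapped between genotypes, as did Tlcd4 and Steap4. Vipr1, a receptor for vasoactive intestinal peptide, had every N-LKO liver below every WT liver, with a log2 fold change of -0.34 (SE 0.108, edgeR adjusted p = 0.2). Abcc9, a subunit of potassium channels in pericytes, had every N-LKO liver above every WT liver at 0.51 (SE 0.157, edgeR adjusted p = 0.191).

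**Figure D3:**
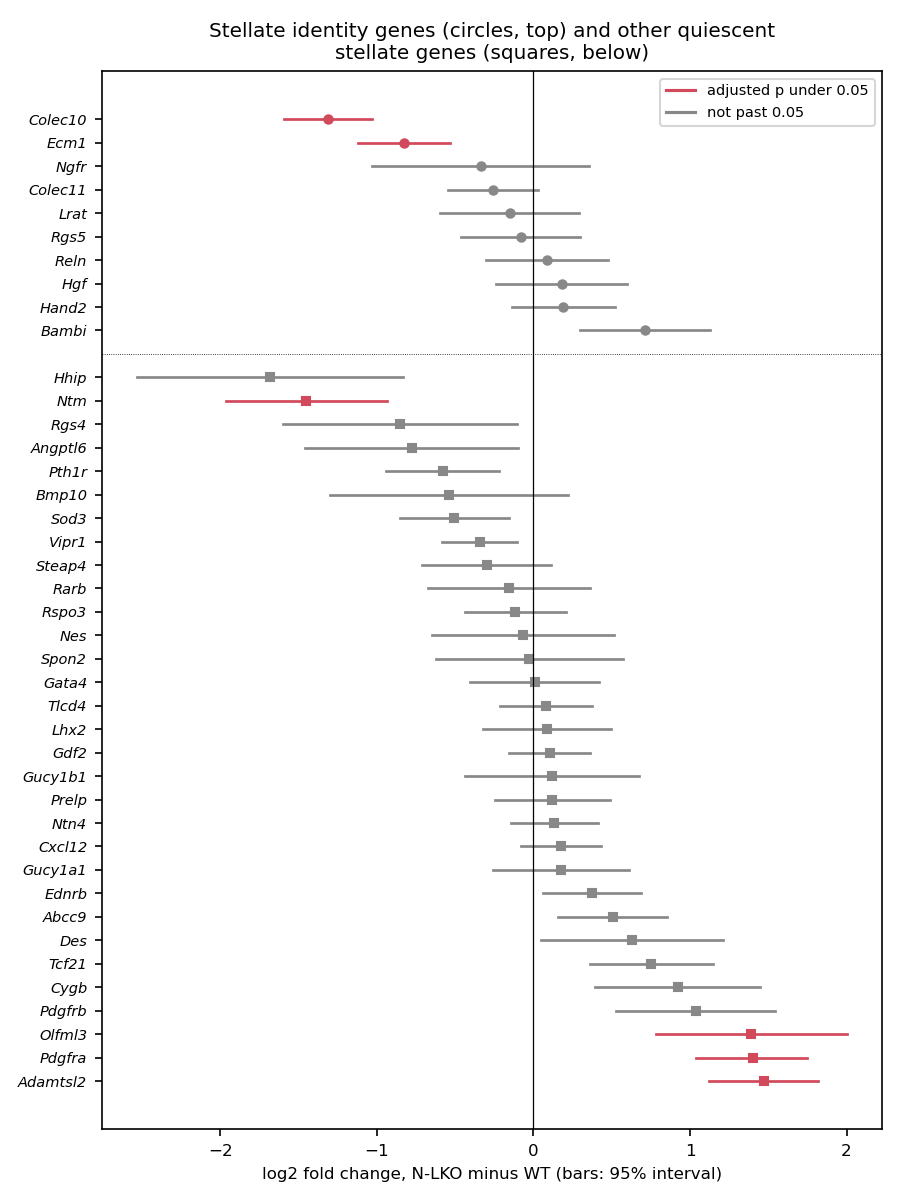
Log2 fold change (N-LKO minus WT, horizontal axis) with its 95% interval for the 10 genes (circles, top) and for 31 other quiescent stellate genes (squares, below), each ordered by value, red where the adjusted p was under 0.05. Colec10 and Ecm1 lie at -1.31 and -0.83, and Bambi lies at 0.71 with an interval above 0. Ngfr, Colec11, Lrat, Rgs5, Reln, Hgf and Hand2 have intervals that include 0, and the squares extend to both sides.

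Genes of activated stellate cells mostly had log2 fold changes above 0, with calls in both directions. Of 24 tested, 3 were called higher and 1 lower, beside 0.823% and 0.218% of all genes. DESeq2 called 9 higher and 1 lower, and limma-voom 2 and 1. The log2 fold change was above 0 for 20 and below for 4, and 14 had an unadjusted p under 0.05 in edgeR. Every N-LKO liver was above every WT liver for 10, beside 4.2% of all genes, and below for 1, beside 3.32%. The median log2 fold change was 0.60 beside -0.0033 for all genes. Col1a1, which encodes a chain of type I collagen, rose from 3.41 ± 0.892 to 9.41 ± 4.25 CPM (SD, n = 4 each), with a log2 fold change of 1.45 (SE 0.291, edgeR adjusted p = 0.0444), and it was called without N-LKO 2 but in none of the other 7 fits with a liver left out. Mmp2, a gelatinase, rose by 1.85 (SE 0.277, edgeR adjusted p = 0.0109), and Thbs2, a matricellular thrombospondin, rose by 1.74 (SE 0.223, edgeR adjusted p = 0.00483). Postn, the matricellular protein periostin, fell by 1.27 on the log2 scale (SE 0.208, edgeR adjusted p = 0.0167), and its call was lost without WT 4 and without N-LKO 1. Acta2 and Tnc did not pass the filter on low counts. The most abundant uncalled genes of the list were Bgn, Sparc, Vim, Ccn2, Col3a1 and Col1a2, with log2 fold changes from 0.24 (Sparc, SE 0.133) to 0.94 (Col1a2, SE 0.206).

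The partners of the 10 genes in their own pathways were called in few cases. In the lectin pathway, 1 of 12 tested was called, and it was higher, beside 0.823% of all genes. It was the scavenger collectin Colec12, which rose from 43.2 ± 1.92 to 60.2 ± 2.31 CPM (SD, n = 4 each) with a log2 fold change of 0.48 (SE 0.0666, edgeR adjusted p = 0.00784). The most abundant uncalled members, C3, C4b and Serping1, had log2 fold changes from -0.13 (C3, SE 0.162) to 0.25 (C4b, SE 0.197). In retinoid storage and signalling, Rbp4, the plasma carrier of retinol, was at -0.045 (SE 0.108) and Aldh1a1, a retinaldehyde dehydrogenase, at 0.58 (SE 0.142, edgeR adjusted p = 0.105). None of the 10 genes tested for HGF and its receptor was called by edgeR, DESeq2 or limma-voom, and 1 had an unadjusted p under 0.05 in edgeR. The most abundant, Plg, Sdc1 and F12, had log2 fold changes from 0.022 (Plg, SE 0.117) to 0.19 (Sdc1, SE 0.116). Met, the HGF receptor, named here outside the naming rule and after its values were seen, was at 96.5 ± 11.7 CPM in WT and 96.6 ± 8.63 CPM in N-LKO livers (SD, n = 4 each).

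For BMP and TGF-beta signalling, to which Bambi and Ecm1 relate, none of 29 genes tested was called by edgeR or limma-voom and 1 by DESeq2 (Tgfb3), 7 had an unadjusted p under 0.05 in edgeR, and the median log2 fold change was 0.19. The log2 fold change was above 0 for 22 of these 29 genes and below for 7. Hamp, the hepcidin gene that BMP signals induce in hepatocytes, was at 0.27 (SE 0.366), Id2 at -0.025 (SE 0.325) and Bmpr2 at 0.059 (SE 0.0644). The TGF-beta ligand genes, named after their values were seen, were at -0.016 (Tgfb1, SE 0.216), 1.45 (Tgfb2, SE 0.48) and 1.24 (Tgfb3, SE 0.342). Tgfb2 had only 1 to 39 counts per liver. None of the 7 reelin and neurotrophin genes, the 16 RGS and vasoactive receptor genes or the 15 mesenchymal transcription factor genes was called by edgeR, DESeq2 or limma-voom, and 4, 3 and 1 of them had an unadjusted p under 0.05 in edgeR. Vldlr, a reelin receptor, was at -0.74 (SE 0.258, edgeR adjusted p = 0.244) with every N-LKO liver below every WT liver. Sort1, a partner of NGFR, was at 0.42 (SE 0.118, edgeR adjusted p = 0.158), and Rtn4 at -0.035 (SE 0.13). The angiotensin receptor gene Agtr1a was at 0.062 (SE 0.0925), and the G protein genes Gnaq and Gna11 were at -0.24 (SE 0.0846) and 0.020 (SE 0.0749). The transcription factor genes Nr2f2, Tbx3 and Tcf4 were at -0.14 (SE 0.167), -0.27 (SE 0.394) and -0.23 (SE 0.128).

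Markers of other cells moved beside these genes. Of 12 portal fibroblast markers tested, 6 were called higher and none lower, beside 0.823% and 0.218% of all genes. Their median log2 fold change was 1.30. The summed level of the list was 146 to 197 CPM in WT and 227 to 320 CPM in N-LKO livers. Most of that sum was Dcn, at 119 to 162 CPM in WT and 160 to 237 CPM in N-LKO livers. Dcn overlapped between genotypes and was not called (edgeR adjusted p = 0.185). The most abundant of those called were Gsn, Lum and Dpt, and Gsn, which encodes gelsolin, rose from 6.51 ± 0.68 to 27.6 ± 6.38 CPM (SD, n = 4 each). No gene of the list was at 0 in all livers, and 5 were under 1 CPM. Portal fibroblasts also express Pdgfra, Mmp2 and Col1a1, and the part of these cells in the rises among stellate genes was not tested. Of 7 cholangiocyte markers tested, 2 were called higher (Epcam and Spp1), beside 0.823% of all genes. Neither was called by limma-voom, and each was called in 2 of the 8 fits with a liver left out. Summed levels of the list were 42.5 to 68.6 CPM in WT and 79.2 to 165 CPM in N-LKO livers. Of 5 mesothelial markers, 1 was called higher (Wt1, which was not called without WT 4), beside 0.823% of all genes. None of 4 smooth muscle markers was called by any of the 3 tools or reached an unadjusted p under 0.05.

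The cells next to stellate cells in the sinusoid are endothelial and Kupffer cells. None of 13 sinusoidal endothelial markers was called by edgeR, DESeq2 or limma-voom. Their log2 fold change was below 0 for 10 and above for 3, with a median of -0.070. An unadjusted p under 0.05 in edgeR was reached by 3, all of them lower. Summed levels were 352 to 408 CPM in WT and 310 to 380 CPM in N-LKO livers. Of 12 Kupffer cell markers, 1 was called lower, beside 0.218% of all genes. It was Cd163, which fell by 1.60 (SE 0.261) but was not called without WT 4 or without N-LKO 3. All 12 log2 fold changes of the Kupffer cell markers were below 0, and the median was -0.17. None of 12 hepatocyte markers was called by edgeR or limma-voom, 2 by DESeq2 and 2 at an unadjusted p under 0.05 in edgeR, and the median was 0.065. The summed level of the 10 stellate identity genes was 178 to 267 CPM in WT and 159 to 218 CPM in N-LKO livers, with overlap.

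**Figure D4:**
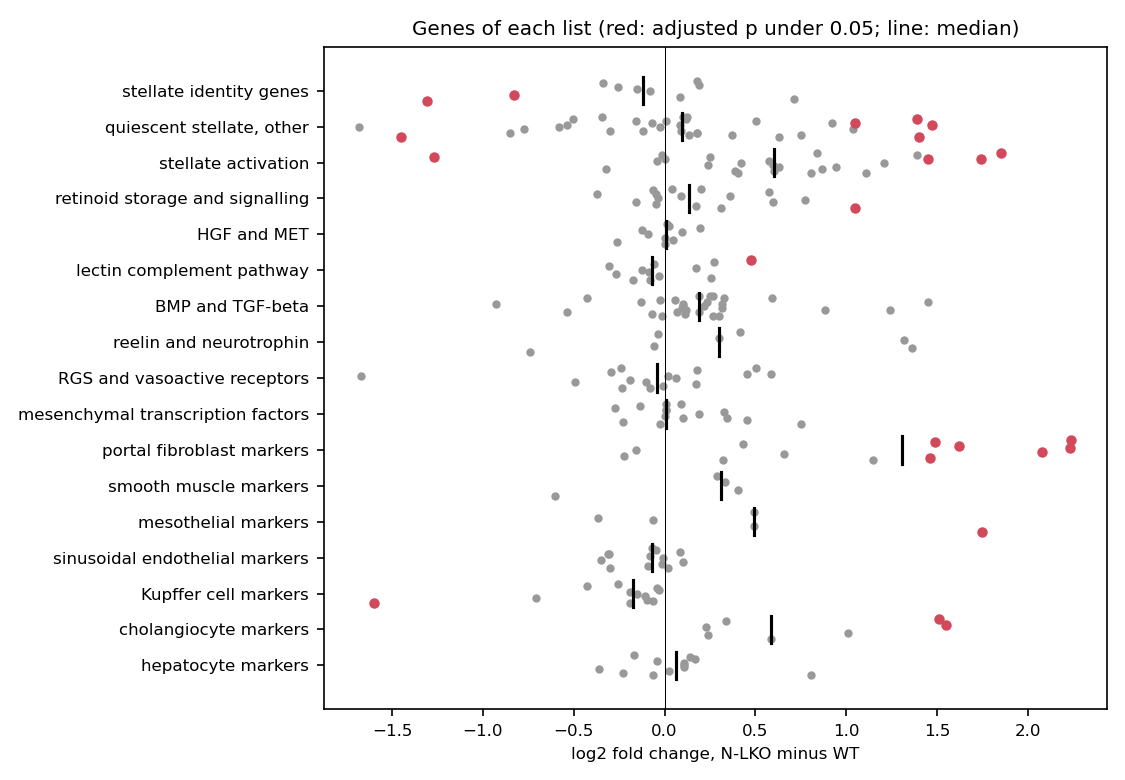
Log2 fold change (N-LKO minus WT, horizontal axis) of every tested gene in each list (rows, 1 point per gene, shifted vertically only to separate points), red where the adjusted p was under 0.05, with the median of each list as a black line. The stellate identity genes have 2 red points on the left at -1.31 and -0.83, whereas the red points of the activation and portal fibroblast lists lie on the right apart from Postn at -1.27.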

How the data were processed

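Groups are the genotypes of the labels. The values that the authors deposited are expected counts, which are estimates of reads per gene and may have decimals (52.3% of genes did), without scaling for depth. The study's methods describe rRNA removal, trimming and TopHat2, whereas the submitters' processing notes list STAR, Partek and mm9. The labels name a small RNA library kit for these total RNA libraries. The deposited coordinates of the 10 genes matched GENCODE M21 on GRCm38, apart from ends that lie 1 base further, and the annotation's ends are given. The program and annotation behind the counts are not given in the sources used here.

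Counts were rounded, filtered with edgeR's filterByExpr (minimum count 10, minimum total 15), normalised with TMM and fitted in edgeR 4.0.16 under R 4.3.3 (quasi-likelihood test, genotype only), with Benjamini-Hochberg adjustment at 0.05. The SE is the log2 fold change over the square root of F. Log2 CPM used a prior count of 2. cuffdiff, the study's test, needs reads and was not run. P-values measure the spread between 4 mice per group, and no pair of libraries was as close as sampling noise (chi-square per degree of freedom 10.7 to 61.3).

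The 10 genes and the 16 other lists were chosen with earlier results of these data known. The text names every member, Nus1, every called gene of a list (at most 3 by mean CPM for other cell types), up to 6 uncalled genes with the highest mean CPM from the stellate and pathway lists, and the 5 genes most like Colec10 and Ecm1. Alternatives were RLE scaling, library totals, no filter, DESeq2 1.42.0, limma-voom (limma 3.58.1), a minimum of 10 counts in every mouse, a block for the replicate or the library number, a prior count of 0.5 and each mouse left out. Scripts were tested on simulated data. 1 gene that the naming rule covers is left out of the text and of the plot of single fold changes.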

Additional observations from a re-analysis of the deposited data

Results flagged for a closer look

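In 4 of 76 groups of 4 livers tested, 1 liver stood apart from the other livers by Dixon's criterion, where about 3.8 are expected by chance. Colec10 in WT 2 was at 4.60 log2 CPM beside 4.94 to 4.99 in the other WT livers. Relative to the mean of the other quiescent stellate genes, Ecm1 in N-LKO 1 was at 2.22 on the log2 scale beside 2.09 to 2.10, and Rgs5 in WT 3 was at 2.64 beside 2.14 to 2.21. The summed CPM of the HGF and MET genes in N-LKO 4 was 11.6 on the log2 scale beside 11.4 to 11.5.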

How the results depend on the processing

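Colec10 and Ecm1 were called lower under all 8 alternatives that keep every liver, a description since genes were chosen by falls in these livers. The number of the 10 genes called was 1 to 2 with a liver left out, Ecm1 losing its call without WT 4 and without N-LKO 3. The number of all genes called was 148 and became 98 with at least 10 counts in every mouse, 387 with DESeq2 (126 lower and 261 higher), and 71 to 173 with a liver left out, being 83 without WT 2, 91 without WT 3, 71 without WT 4 and 76 without N-LKO 3. Called genes of the other quiescent stellate list went from 5 to 3 with the replicate block, 8 with DESeq2, and 3 to 5 with a liver left out (3 without N-LKO 3). Called activation genes went from 4 to 10 with DESeq2 and 2 to 4 with a liver left out (2 without WT 4). The replicate numbers do not pair the livers (correlation of same-numbered livers -0.085 to 0.062, and -0.0092 to 0.17 for library numbers). With the replicate block 131 genes were called and with the library number 113, and of the genes named Olfml3, Ntm, Col1a1 and Wt1 lost their call with the replicate block and Col1a1, Spp1 and Epcam with the library number, while Ccn2 and Col1a2 gained one with the replicate block. Relative to other stellate genes Ecm1 differed by -0.91, which moved to -0.789 when the 5 called genes were left out of the reference, and was -0.86 with the other 8 members as the reference. Colec10 was at -1.28 and -1.35. These references were chosen after seeing the data.

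Log2 fold changes near 0 changed sign in places. With library totals alone Plg was at -0.013, Gna11 at -0.014 and Met at -0.032, and Met was at -0.00756 with no filter and -0.000544 with DESeq2. With a liver left out, Reln ranged from -0.055 to 0.22, Rgs5 from -0.20 to 0.10, Met from -0.0753 to 0.0642, Plg from -0.0556 to 0.111, Gna11 from -0.00886 to 0.0596, Serping1 from -0.1 to 0.0592, Rbp4 from -0.0855 to 0.026, Id2 from -0.335 to 0.206, Rtn4 from -0.139 to 0.0805, Nr2f2 from -0.256 to 0.08 and Tbx3 from -0.585 to 0.0739. Of the 10 genes, Ngfr had the fewest counts, at 14 to 47 per liver.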
